A study of Caenorhabditis elegans with 6 samples.

Results

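Binding of ADR-1 to the RNA of 3 signal transduction genes of Caenorhabditis elegans was examined: sos-1, gpa-16 and crh-1. The genes were taken by name from the authors' list of uniquely annotated significant read clusters, which holds 636 clusters with 363 gene identifiers. All clusters that name 1 of the 3 genes were kept, which gave 9 clusters, 4 in 3' UTRs and 5 in introns. The label of signal transduction rests on what the encoded proteins are known to do and was not drawn from the reads.

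ADR-1 is a double-stranded RNA binding protein of the ADAR family. It does not edit RNA itself, and it is known to influence where the active deaminase ADR-2 converts adenosines to inosines. CLIP finds the RNA stretches a protein touches: ultraviolet light links both in the living animal, RNase shortens the RNA, and what remains bound is recovered with the protein. The labels name the assay iCLIP and the file captions eCLIP. All 6 libraries came from unsynchronized mixed-stage populations of the strain HAH59, which carries 3xFLAG ADR-1, grown at 20 °C on Escherichia coli OP50 and crosslinked at 3 J/cm2. In 3 CLIP libraries RNA was recovered with anti-FLAG beads, and 3 input libraries held RNA of the same lysates before the pulldown. No library of animals without the tag was analysed here, so RNA that sticks to the beads cannot be told apart from RNA bound by ADR-1, and whole animals do not show in which cells binding took place.

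The 3 genes encode different kinds of signalling protein. sos-1 encodes the guanine nucleotide exchange factor that loads Ras (LET-60) with GTP downstream of receptor tyrosine kinases, a step known from vulval induction by the epidermal growth factor receptor LET-23. gpa-16 encodes an alpha subunit of a heterotrimeric G protein, known for its part, together with GOA-1, in positioning the mitotic spindle of the early embryo. crh-1 encodes the worm homolog of CREB, a transcription factor with a basic leucine zipper that is activated by phosphorylation through calcium- and cyclic AMP-dependent kinases and is known for roles in memory and lifespan.

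The library totals, recovered from the deposited statistics, were 5775547, 5776080 and 5777313 reads for CLIP replicates 1, 2 and 3 and 4158136, 2476556 and 4249694 for the inputs. The 3 CLIP totals were equal within the error of the recovery, and whether each is the depth of its own library is not known. The 636 clusters took 2.24%, 0.484% and 1.38% of the CLIP reads and 0.130%, 0.0755% and 0.131% of the input reads. CLIP replicate 2 had the fewest reads of the 3 CLIP libraries in 9 of the 9 clusters described here. If a total is not the depth of its own library, the shares, the scaled ratios and the levels relative to the library total of that replicate would all shift by a common amount, the ratios below 0 in replicate 2 included. The edgeR test and the folds pooled over replicates, both given below, use the same totals and would change as well. The lowest deposited count in any library was 1, so an input count of 1 may stand for 0. Differences between clusters within a replicate do not depend on the totals.

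sos-1 (WBGene00004947) lies on the minus strand of chromosome V, from 4516944 to 4549291 in RefSeq's annotation of WBcel235, the assembly that is also called ce11. Its 3' UTR cluster at chrV:4517282-4517574 carried the most reads of the 9 clusters, and its intron cluster at chrV:4520733-4520870 was among the weakest. In replicates 1, 2 and 3 the 3' UTR cluster collected 595, 174 and 398 reads in CLIP and 2, 3 and 3 in input. Every CLIP library was far above every input library, and as reads per library total (RPM) the range was 30.1 to 103 RPM in CLIP and 0.481 to 1.21 RPM in input. The list holds 431 clusters in 3' UTRs, all chosen for enrichment in these libraries, and how many of them separate in this way was not counted. Of the 431, the authors marked 20 as depleted in replicate 2 and 0 in replicates 1 and 3. For the sos-1 3' UTR cluster, the log2 ratio of CLIP over input was scaled for library totals with 1 read added to each count. It was 7.16, 4.23 and 6.20, a mean of 5.86 ± 1.49 (SD, n = 3). This placed it at rank 14 of the 431 clusters in 3' UTRs. It was also the longest of these 431 clusters, at 292 bases against a median of 85, and it ended 338 bases before the 3' end of the gene (distances may be off by 1 base, since the files do not say whether coordinates count from 0 or 1).

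The intron cluster of sos-1 collected 30, 1 and 16 reads in CLIP and 1, 1 and 2 in input. CLIP exceeded input in replicates 1 and 3 only, and in replicate 2 the authors marked the cluster as depleted. That mark rests on 1 read in CLIP and 1 in input, where the authors' test gave no p under 0.05. The scaled log2 ratio of the cluster was 3.48, -1.22 and 2.06, and the mean of 1.44 ± 2.41 (SD, n = 3) was within the spread of its replicates. The cluster lay 3159 bases upstream of the 3' UTR cluster in the direction of transcription, toward the end of a gene of 32348 bases. Within replicates, the 3' UTR cluster exceeded it by 3.68, 5.45 and 4.14 on the log2 scale, a mean of 4.42 ± 0.92 (SD, n = 3). The sign was the same in 3 of 3 replicates, with an exact two-sided sign-flip p of 0.25, the smallest that 3 replicates can give (adjusted p of 0.312 over the 5 differences between clusters that were computed). Of the 1214 CLIP reads in both clusters of the gene, 96.1% came from the 3' UTR.

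gpa-16 (WBGene00001678), on the plus strand of chromosome I from 897286 to 907370, had a pair of neighbouring 3' UTR clusters and no intron cluster. They are numbered 1 and 2 from the 5' end, at chrI:906996-907071 and chrI:907145-907243, with 74 bases between them. A 3' UTR cluster was found in 232 genes, of which 61 had exactly 2 and 126 had 1. Cluster 1 collected 97, 20 and 43 reads in CLIP and 1, 2 and 1 in input, and its scaled log2 ratio was 5.14, 1.59 and 4.02, a mean of 3.58 ± 1.82 (SD, n = 3). Cluster 2 collected 58, 15 and 28 reads in CLIP and 3, 1 and 2 in input, with ratios of 3.41, 1.78 and 2.83 and a mean of 2.67 ± 0.83 (SD, n = 3). In both clusters the lowest CLIP library was above the highest input library. As for sos-1, this separation was not counted over the 431 clusters in 3' UTRs.

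In CLIP reads, cluster 1 of gpa-16 was the larger in each replicate. In the scaled ratio it exceeded cluster 2 by 0.91 ± 0.99 (SD, n = 3), positive in 2 of 3 replicates and with an exact sign-flip p of 0.5 (adjusted p of 0.5), so the ratios of the pair did not differ beyond their spread. Input counts of 1 to 3 reads set the precision of this comparison. The clusters stood at ranks 191 and 299 of 431 in mean ratio, on either side of the class median of 3.41. Cluster 2 ended 127 bases before the 3' end of the gene and cluster 1 ended 299 bases before it, against a median of 367 bases over the 431 clusters.

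crh-1 (WBGene00000793), on the plus strand of chromosome III from 11657767 to 11693981, had 5 clusters at opposite ends of a gene of 36215 bases. The 3' UTR cluster at chrIII:11693861-11693970 ended 11 bases before the 3' end of the gene and was the second strongest of the 9. It collected 198, 40 and 107 reads in CLIP and 1, 2 and 1 in input, and its scaled log2 ratio was 6.16, 2.55 and 5.31, a mean of 4.68 ± 1.89 (SD, n = 3). The CLIP values ran from 6.93 to 34.3 RPM and did not overlap the input values of 0.235 to 0.808 RPM, which was not counted over the class either. The cluster ranked 76 of 431 among 3' UTR clusters in mean ratio.

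The remaining 4 clusters of crh-1 were annotated to introns and lay together within 714 bases near the 5' end, between 13.6% and 15.4% of the way along the gene. They are numbered 1 to 4 from the 5' end, and gaps of 49, 286 and 11 bases separated them, so that they form a pair at each side of the middle gap. The 3' UTR cluster lay 30493 bases downstream of the last. No other RefSeq gene overlapped any of the 9 clusters, and the authors' annotation named no other gene at them on either strand. Exon positions were not used here, so whether the 4 clusters share a single intron was not tested.

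Intron cluster 1 of crh-1, at chrIII:11662654-11662760, collected 27, 8 and 34 reads in CLIP and 1 in each input. It had the highest mean of the 4, with scaled log2 ratios of 3.33, 0.95 and 3.69 and a mean of 2.66 ± 1.49 (SD, n = 3). Intron cluster 2, at chrIII:11662809-11662918, collected 29, 1 and 36 reads in CLIP and 3, 1 and 2 in input. It combined the most reads of the 4 in CLIP replicate 3 with a single read in replicate 2, and its ratios of 2.43, -1.22 and 3.18 gave a mean of 1.46 ± 2.36 (SD, n = 3), within the spread of its replicates.

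Intron cluster 3, at chrIII:11663204-11663291, collected 18, 4 and 28 reads in CLIP and 1 in each input, with ratios of 2.77, 0.10 and 3.42 and a mean of 2.10 ± 1.76 (SD, n = 3). Intron cluster 4, at chrIII:11663302-11663368, collected 22, 2 and 17 reads in CLIP, again with 1 in each input. Its ratios were 3.05, -0.64 and 2.73, and the mean of 1.71 ± 2.04 (SD, n = 3) was below its SD, as for cluster 2. Replicate 2 thus had the lowest ratio in 4 of the 4 clusters, below 0 in clusters 2 and 4, and the authors marked both of these as depleted in that replicate. The marks rest on 1 and 2 CLIP reads against 1 input read each, with no authors' p under 0.05. Averaged over the 4 clusters, the ratio was 2.90, -0.20 and 3.25 in replicates 1, 2 and 3. The median ratio of the 97 intron clusters of the list was 3.05, 0.10 and 2.95, so a low replicate 2 was not particular to crh-1. The 4 clusters come from the same gene and the same libraries and are not replicates of each other.

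**Figure D1:**
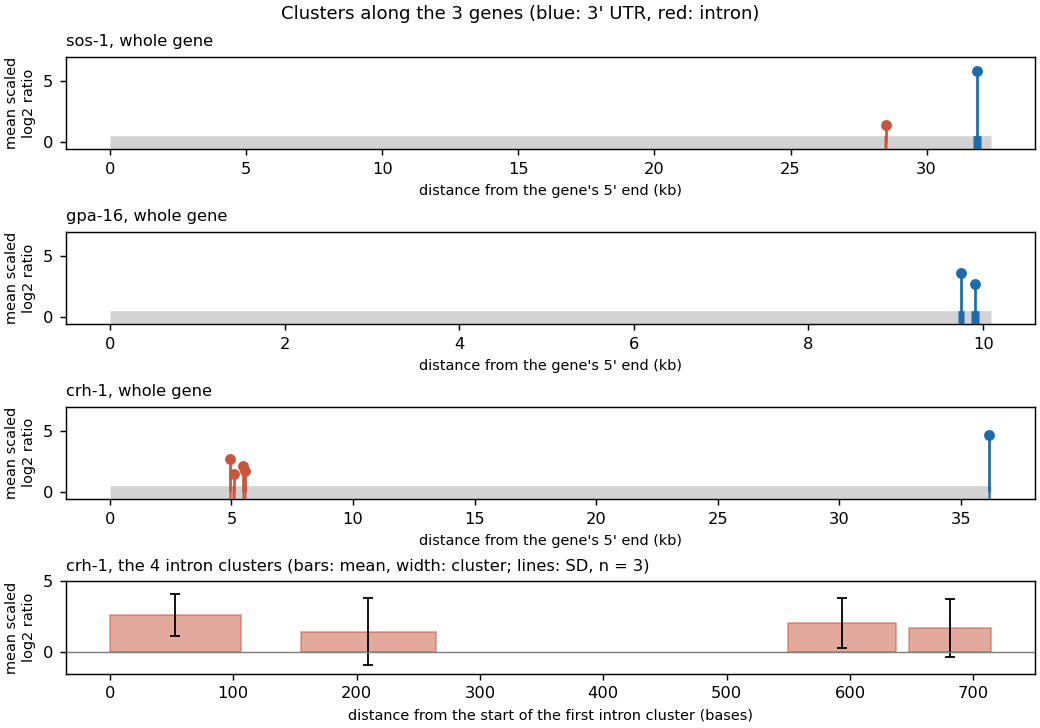
Positions of the 9 clusters along sos-1, gpa-16 and crh-1 (x axis, distance from the 5' end of the gene in kilobases, with the gene as a grey bar) and their mean scaled log2 ratio of CLIP over input (y axis, 3 replicates). The lowest panel shows the 4 intron clusters of crh-1 by distance in bases from the start of the first, with bars as wide as the clusters and lines for the SD. The 3' UTR clusters stand at the right end of each gene and the 4 crh-1 intron clusters near the left end of theirs.

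Within crh-1, the 3' UTR cluster exceeded the mean of the 4 intron clusters by 3.27, 2.75 and 2.06 on the log2 scale in replicates 1, 2 and 3, a mean of 2.69 ± 0.61 (SD, n = 3). The difference had the same sign in 3 of 3 replicates, with an exact two-sided sign-flip p of 0.25, the smallest that 3 replicates allow (adjusted p of 0.312). The 4 intron clusters held 226 of the 571 CLIP reads of the gene, and the 3' UTR cluster held the remaining 60.4%. By replicate the share of the 3' UTR cluster was 67.3%, 72.7% and 48.2%, so in replicate 3 the introns held more CLIP reads (115) than the 3' UTR (107). In sos-1 the share of the 3' UTR was 95.2%, 99.4% and 96.1%, above that of crh-1 in each replicate, a difference that was not tested. The shares are not scaled for the number or length of clusters. In crh-1, 4 intron clusters of 66 to 109 bases stand against a 3' UTR cluster of 109 bases. In sos-1, an intron cluster of 137 bases stands against a 3' UTR cluster of 292 bases.

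**Figure D2:**
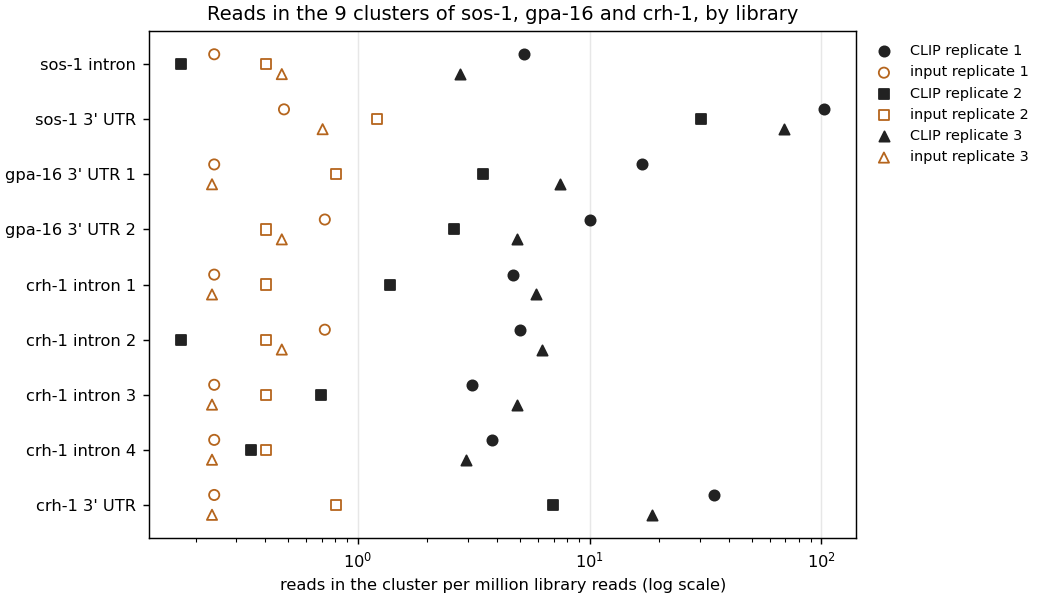
Reads in each of the 9 clusters relative to the library total (RPM), on a log scale (x axis), in the 3 CLIP libraries (filled) and the 3 input libraries (open), with a symbol for each replicate. CLIP and input do not overlap in the 4 clusters in 3' UTRs, while CLIP replicate 2 lies at or near the inputs in the sos-1 intron cluster and in crh-1 intron clusters 2 and 4. All clusters were chosen for enrichment in these libraries, and the separation was not counted over the 431 in 3' UTRs.

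Ordered by mean scaled log2 ratio, the 3' UTR clusters of sos-1 (5.86) and crh-1 (4.68) led, followed by gpa-16 clusters 1 (3.58) and 2 (2.67). The crh-1 intron clusters 1 (2.66), 3 (2.10), 4 (1.71) and 2 (1.46) and the sos-1 intron cluster (1.44) came after them. The sos-1 3' UTR exceeded that of crh-1 by 1.19 ± 0.43 and the crh-1 3' UTR exceeded gpa-16 cluster 1 by 1.09 ± 0.18 (SD, n = 3), each in 3 of 3 replicates and each with an exact sign-flip p of 0.25, the smallest possible (adjusted p of 0.312). From gpa-16 cluster 2 downward, each cluster differed from the next by less than the SD of either. Within replicates, crh-1 intron cluster 1 exceeded its next neighbour, intron cluster 3, by 0.56, 0.85 and 0.27, a mean of 0.56 ± 0.29 (SD, n = 3). The other 4 steps among these 6 clusters changed sign or were 0 in at least 1 replicate, with means of 0.02 to 0.38 that were below the SD of the differences. With input counts of 1 taken as 0, the difference between sos-1 and crh-1 was 0.52, because sos-1 had 2 or 3 input reads where crh-1 had mostly 1.

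**Figure D3:**
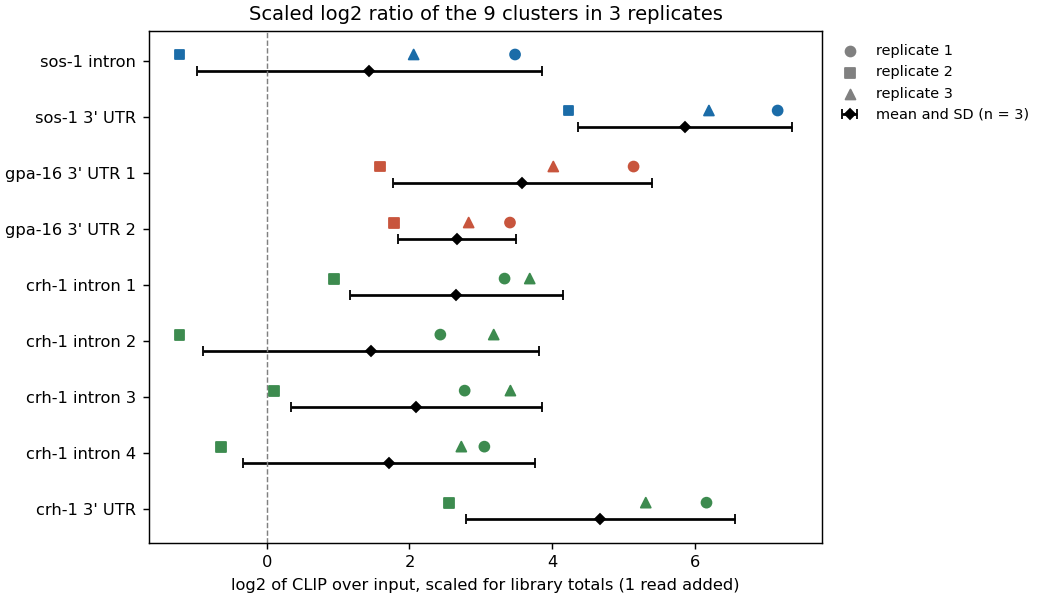
Log2 ratio of CLIP over input, scaled for library totals with 1 read added to each count (x axis), for the 9 clusters in replicates 1, 2 and 3 (coloured symbols), with the mean and SD of the 3 replicates in black. Replicate 2 is the lowest in every cluster shown, and the dashed line at 0 marks equal shares of reads in CLIP and input.

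Pooled over the replicates, the sos-1 3' UTR had 1167 CLIP reads against 8 input reads, a fold of 91.6 (95% exact counting interval 46.3 to 213). The crh-1 3' UTR had 345 against 4, a fold of 54.2 (21.0 to 200), and gpa-16 clusters 1 and 2 had folds of 25.1 (9.62 to 93.3) and 10.6 (4.69 to 29.5). The pooled folds of the 5 intron clusters ranged from 6.91 to 14.5. For the lowest of these, crh-1 intron cluster 2, the counting interval was 3.01 to 19.5. The intervals cover counting error only, not the spread between replicates, and those of the intron clusters overlap each other. The intervals of the sos-1 3' UTR, the crh-1 3' UTR and gpa-16 cluster 1 also overlap each other. Those of both gpa-16 clusters overlap each other, that of the crh-1 3' UTR and those of the 5 intron clusters. The interval of the crh-1 3' UTR overlaps those of all intron clusters except crh-1 intron cluster 2. That of the sos-1 3' UTR overlaps those of crh-1 intron clusters 1 (4.74 to 71.8) and 3 (3.38 to 52.5).

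CLIP was compared with input by edgeR's quasi-likelihood test over all 736 reproducible clusters, with a filter on low counts and adjustment by Benjamini-Hochberg. The 4 clusters in 3' UTRs passed the filter, and none of the 5 in introns did. All 4 were higher in CLIP at an adjusted p under 0.05, as were 97.2% of the 463 clusters tested, so the count says nothing particular about these genes. The clusters had been chosen for enrichment on the same libraries, which makes these values a description. The edgeR log2 fold was 6.40 ± 1.25 (SE) for sos-1 (adjusted p = 3.6e-06), 5.58 ± 1.19 for crh-1 (adjusted p = 7.63e-06), 4.49 ± 0.99 for gpa-16 cluster 1 (adjusted p = 1.29e-05) and 3.36 ± 0.78 for gpa-16 cluster 2 (adjusted p = 3.03e-05). Among the 463 folds they ranked 33, 91, 220 and 363, and the median was 4.44. TMM scaling moved the median of the 463 folds to 0.37 and the calls to 90 higher and 53 lower, against 450 and 0 with library totals. Under it sos-1 and crh-1 were still called higher, while both gpa-16 calls were lost, at log2 folds of 0.48 and -0.71 with adjusted p of 0.651 and 0.396 in edgeR.

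Without the filter, 97.1% of the 736 clusters were higher in CLIP at an adjusted p under 0.05 in edgeR, and so were the 5 intron clusters, with log2 folds from 2.75 (crh-1 cluster 2) to 3.71 (crh-1 cluster 1). In the same fit, single libraries decided some of these calls. The edgeR adjusted p of the sos-1 intron cluster was 0.00529, and 0.0649 without input replicate 1. That of crh-1 intron cluster 4 was 0.00479, and 0.0546 or 0.0559 without input replicate 1 or 3. That of crh-1 intron cluster 2 was 0.00374, and 0.0524 without CLIP replicate 3. Under TMM scaling the log2 folds of the 5 intron clusters lay between -1.42 and -0.21, with no edgeR call. In that fit 72 of the 736 clusters were called higher and 41 lower.

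In the authors' deposited table, the 3' UTR clusters of sos-1 and crh-1 and cluster 1 of gpa-16 had p under 0.05 in 3 of 3 replicates. For sos-1 the deposited p-values were 3.08e-136, 3.8e-23 and 5.41e-90, and for crh-1 they were 2.57e-45, 7.38e-05 and 1.71e-24, both by Fisher's exact test on reads of single libraries. Cluster 2 of gpa-16 missed the threshold narrowly in replicate 2, at a deposited p of 0.0518 by the authors' Fisher's exact test, where cluster 1 had 0.0347. Thus 3 of 4 clusters in 3' UTRs passed in all replicates, against 53.4% of the 431. The 5 intron clusters passed in replicates 1 and 3 and none did in replicate 2, while 5.15% of the 97 intron clusters passed in all 3. Over all 636 clusters the share was 46.1%.

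Within its class, the position of a cluster can be read in each replicate on its own, which does not depend on the library totals. By scaled ratio the sos-1 3' UTR cluster ranked 19, 15 and 19 of 431 in replicates 1, 2 and 3, a narrow range. The crh-1 3' UTR cluster ranked 62, 119 and 75, and gpa-16 cluster 1 ranked 163, 233 and 198. For gpa-16 cluster 2 the ranks were 352, 212 and 331, so it stood higher in replicate 2 than in the others. Among the 97 intron clusters, crh-1 cluster 1 ranked 34, 15 and 16 and the sos-1 intron cluster 27, 72 and 92. The medians of the mean ratio were 3.41 for the 431 clusters in 3' UTRs, against 4.13 for the 4 described here, and 1.92 for the 97 intron clusters, against 1.71 for the 5 described here.

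**Figure D4:**
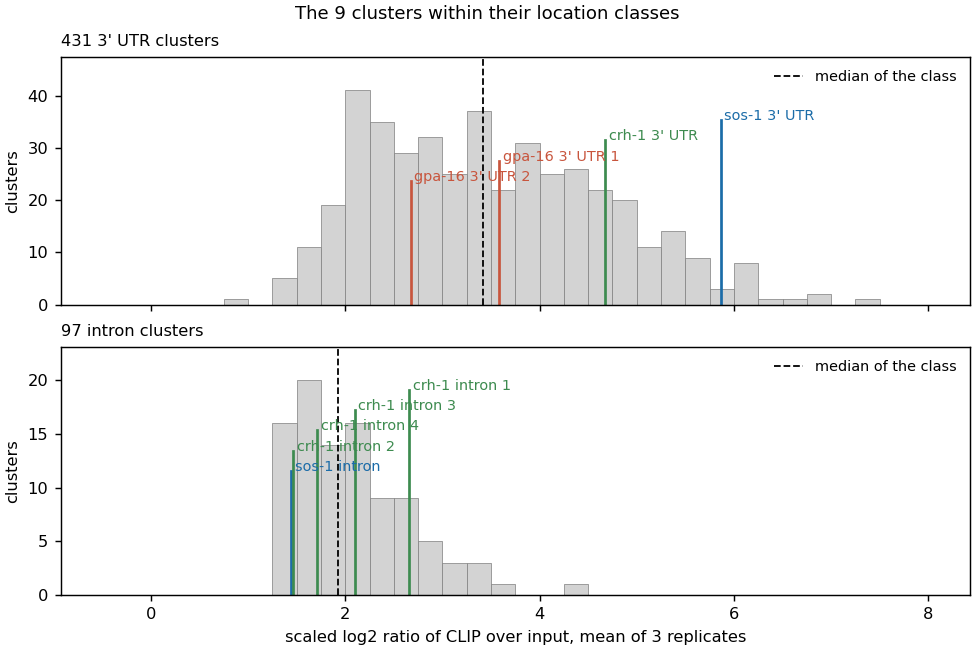
Distribution of the mean scaled log2 ratio of CLIP over input (x axis, 3 replicates) over the 431 clusters in 3' UTRs and the 97 in introns (y axis, number of clusters), with the 9 clusters of sos-1, gpa-16 and crh-1 marked by lines whose height has no meaning. The sos-1 3' UTR cluster is far to the right of its class median of 3.41. Cluster 1 of gpa-16 (3.58) is close to that median and cluster 2 (2.67) lies below it. The 5 intron clusters lie on both sides of their class median of 1.92.

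CLIP reads of replicates 1 and 3 were also set side by side. Those of replicate 3 were fewer than those of replicate 1 in 4 of the 4 clusters in 3' UTRs, at 0.443 to 0.669 of them. In crh-1 intron clusters 1, 2 and 3 they were more numerous, at 1.26, 1.24 and 1.56 times those of replicate 1, and in cluster 4 the ratio was 0.773. In the sos-1 intron cluster it was 0.533, within the range of the 4 clusters in 3' UTRs. Over the classes, the median of this ratio was 0.593 for 3' UTR clusters, of which 27 of 431 had more reads in replicate 3, and 0.858 for intron clusters, of which 37 of 97 did. The 5 intron clusters had 16 to 36 reads in these libraries, so single ratios are imprecise. In replicate 2, 3 of the 5 intron clusters were marked as depleted by the authors, as were 35 of the 97 intron clusters and 20 of the 431 in 3' UTRs. These 3 had 1 or 2 CLIP reads against 1 input read there, with no authors' p under 0.05.

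**Figure D5:**
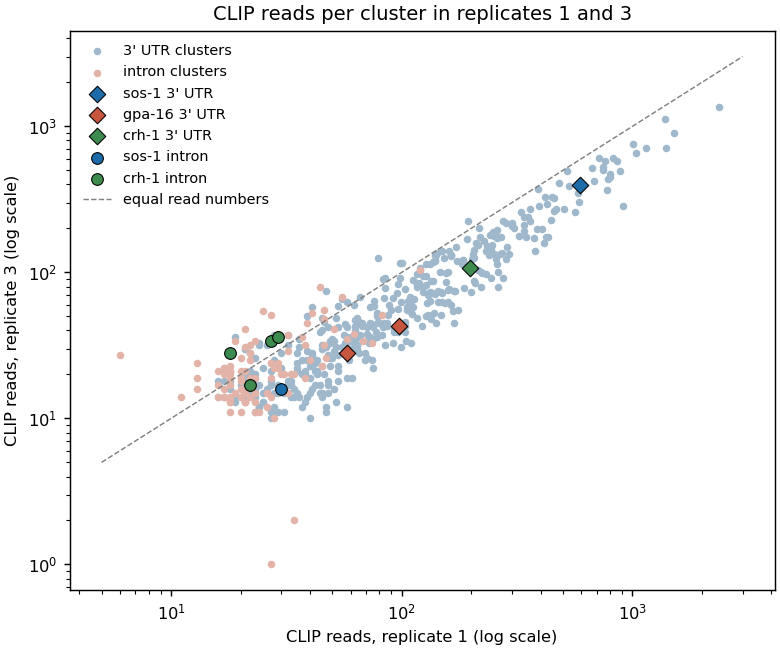
CLIP reads per cluster in replicate 1 (x axis) and replicate 3 (y axis), both on log scales, for the 431 clusters in 3' UTRs and the 97 in introns, with the clusters of sos-1, gpa-16 and crh-1 marked. The 4 marked 3' UTR clusters lie below the dashed line of equal read numbers, as does the sos-1 intron cluster, and 3 of the 4 crh-1 intron clusters lie above it.

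Both kinds of location were found in few genes. Of the 64 genes with an intron cluster, 13 also had a 3' UTR cluster, sos-1 and crh-1 among them, and in 11 of the 13 the highest 3' UTR cluster had a larger mean ratio than the highest intron cluster. Only 3 of the 64 genes had 4 or more intron clusters, while 44 had 1. Intron clusters rest on small counts: in 70 of the 97, none of the 3 inputs went above the minimum of 1 read, and crh-1 intron clusters 1, 3 and 4 belong to these. For these clusters the ratio follows the CLIP reads alone. Among the 431 clusters in 3' UTRs, 155 had no input above that minimum either. Each of the 4 described 3' UTR clusters had at least 1 input above it.

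The cluster profiles most like those of the 3 genes were sought over the 3 scaled log2 ratios, as the smallest distance among all 636 clusters. The sos-1 3' UTR was closest to the 3' UTR clusters of trxr-1, which encodes a thioredoxin reductase (distance 0.34), Y54E10BR.2 (0.34) and algn-7 (0.41). The crh-1 3' UTR was closest to F07C6.4 (0.10), taf-7.2 (0.27) and Y111B2A.12 (0.36). Cluster 1 of gpa-16 was closest to clec-90 (0.17), Y67D2.7 (0.20) and the translation initiation factor gene eif-3.E (0.22). The 9 neighbours were all 3' UTR clusters, and the likeness is one of 3 numbers per cluster that share libraries.

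Partners of the 3 genes in their pathways were also looked up, in lists that each include the gene itself and were drawn up with earlier results of these data known. Of 37 genes of the Ras and MAP kinase pathway, 3 had a cluster among the 636: sos-1, cnk-1 and lin-7. Of 53 genes of heterotrimeric G protein signalling, 3 did: gpa-16, gpb-1 and rgs-4. Of 19 genes around CREB, 3 did: crh-1, crtc-1 and cmd-1. None of 22 other genes for basic leucine zipper transcription factors had a cluster. Of all protein-coding genes of RefSeq, 1.45% (290 of 19983) were named by a cluster, and no test was made of the lists.

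Among these partners, lin-7, which encodes a PDZ protein that helps to place the receptor LET-23 in vulval cells, had a pair of 3' UTR clusters of which the stronger collected 360, 90 and 224 reads in CLIP and 2 in each input. Its scaled log2 ratio of 5.31 ± 1.43 (SD, n = 3) was close to that of sos-1. cnk-1, which encodes a scaffold protein of the Ras pathway, collected 31, 1 and 15 reads in CLIP and 1 in each input, with a ratio of 1.62 ± 2.51 (SD, n = 3), a mean within its spread. The G protein beta subunit gene gpb-1 collected 64, 28 and 32 reads over its 3' UTR cluster in CLIP and 2, 6 and 3 in input, with a ratio of 2.46 ± 1.57. rgs-4, a regulator of G protein signalling, had a pair of 3' UTR clusters at 2.15 ± 1.22 and 1.90 ± 1.84 (SD, n = 3), the latter with -0.22 in replicate 2.

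crtc-1 encodes the coactivator of CRH-1 whose activity is set by its phosphorylation. Its 3' UTR cluster at chrI:2033446-2033534 collected 148, 17 and 73 reads in CLIP and 1 in each input. The scaled log2 ratio was 5.75, 1.95 and 4.77, a mean of 4.15 ± 1.97 (SD, n = 3), near the 4.68 of the crh-1 3' UTR, and the cluster passed the authors' test in 3 of 3 replicates. cmd-1, the calmodulin gene, collected 20, 7 and 17 reads over its 3' UTR cluster in CLIP and 2, 1 and 2 in input, with a ratio of 1.75 ± 0.85 (SD, n = 3), and passed in 2 replicates. The ratio exceeded 0 in every replicate for crtc-1, cmd-1, gpb-1, lin-7 and the rgs-4 cluster at 2.15. The 431 clusters in 3' UTRs were chosen for enrichment in these libraries, and 20 were marked as depleted in replicate 2 and 0 in replicates 1 and 3. Positive ratios thus say nothing particular about these genes.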

How the data were processed

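The submitters' processing notes name fastp 0.21.0, STAR 2.7.10b and the build ce11 or WBcel235. Per the file captions, CLIPPER made the clusters and the replicates are biological. Per the labels' protocols, 2% of each 5 mg lysate was set aside as input after digestion with RNase I (150 U). The authors deposited unnormalized counts of reads for each cluster in every library, 736 reproducible clusters of which 636 are uniquely annotated, with a p-value per replicate from a chi-square or Fisher test. The deposited chi-square score was read as a chi-square with Yates' correction on cluster reads and all remaining reads. The deposited log2 fold adds 1 to both counts and is not scaled, which held in 736 of 736 clusters of each replicate, and a further deposited log2 column is that of the counts scaled for library totals.

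Library totals were fitted to the scores and scaled ratios, meeting 130 of 130, 73 of 76 and 116 of 116 scores within rounding, with standard errors of 0.0377%, 0.798% and 0.0975% for CLIP replicates 1 to 3. On simulated scores the totals were recovered within 0.363%. The test of CLIP against input used edgeR 4.0.16 (glmQLFit, glmQLFTest, filterByExpr) in R 4.3.3 on the counts of all reproducible clusters, with these totals as library sizes, Benjamini-Hochberg adjustment and a threshold of 0.05. The biological coefficient of variation was 0.673. The fit was tested on simulated counts. DESeq2 1.42.0 was an alternative, as were other scalings, no filter, input counts of 1 as 0, each library left out and a replicate block. Other values were computed in Python 3.11.

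Each input was taken from the lysate of its CLIP library, per the labels' protocols, so equal numbers were taken as pairs. Over clusters, the deviations of a pair from its groups correlated at 0.332, 0.113 and 0.00162. The 3 genes, the 4 lists (132 genes, of which rgs-8 matched no RefSeq symbol) and the tests were chosen with earlier results of these data known. Named are all clusters of the 3 genes, listed genes with a cluster, and for the strongest cluster of each gene the 3 nearest profiles. Gene bounds are RefSeq's for WBcel235, and all 9 clusters lay inside them. No sequence is printed, as no genome was used here.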

Additional observations from a re-analysis of the deposited data

How the results depend on the processing

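The scaled log2 ratios of the 9 clusters stayed positive and moved by less than their SD under 63 of 63 alternatives (pseudocount, scaling, input counts of 1 as 0, a replicate left out). With a replicate left out, the mean of the sos-1 intron cluster (1.44) ranged from 0.42 without replicate 1 to 2.77 without replicate 2. Those of crh-1 intron clusters 1 to 4 were highest without replicate 2, at 3.51, 2.81, 3.09 and 2.89. They were lowest at 2.14, 0.61 and 1.44 without replicate 3 (clusters 1 to 3) and 1.04 without replicate 1 (cluster 4). Of 52 alternative edgeR folds of the 4 clusters in 3' UTRs, 48 kept direction and call. The exceptions were gpa-16 clusters 1 and 2, at 0.48 and -0.71 with TMM and 0.56 and -0.62 with DESeq2 size factors, both of which centre clusters chosen for enrichment near 0. With the replicate block the folds were 6.30 (sos-1), 5.47 (crh-1), 4.38 and 3.37 (gpa-16), and the block changed no call. The number of the 9 clusters called was 4, and 2 with either of these scalings and 9 without the filter. With a library left out it ranged from 4 to 9. It was 4 without CLIP replicate 1 or 3, and 7 to 9 without CLIP replicate 2 or any input, when all 9 clusters passed the filter. Over all clusters tested, 450 of 463 were called higher, 90 and 98 of 463 with TMM and DESeq2 size factors, and 715 of 736 without the filter. Without CLIP replicates 1, 2 and 3 the calls were 393 of 426, 679 of 680 and 407 of 431. Without input replicates 1, 2 and 3 they were 594, 672 and 591 of 727.

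The fit without the filter was itself varied for the 5 intron clusters, which was chosen after seeing the data, and 41 of 50 folds kept direction and call. TMM gave -1.39 (sos-1) and -0.21, -1.42, -0.70 and -1.09 (crh-1 clusters 1 to 4). With a library left out, folds ranged from 1.92 to 3.34 (sos-1), from 2.20 to 3.30 (crh-1 cluster 2) and from 2.44 to 3.48 (crh-1 cluster 4). Requiring the authors' p under 0.05 in all replicates left 1 G protein gene, gpa-16. Input counts of 1 to 3 limit the precision of every ratio here.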
